A study of Homo sapiens with 4 samples.

Results

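Notch signalling passes between touching cells: a ligand of the Jagged or Delta family on one cell pulls on a Notch receptor of its neighbour, proteases then release the intracellular part of the receptor, and this fragment joins the DNA-binding protein RBPJ and a Mastermind coactivator to switch on genes, above all the HES and HEY repressors. In the lung this pathway steers airway progenitors between secretory, ciliated and neuroendocrine fates, and in lung cancer it can act in either direction. NOTCH1 and JAG1 are reported targets of miR-34a, a microRNA that silences mRNAs through short matches in their 3' ends. The 10 genes described here were taken by name from the gene table of 46427 genes: the receptors NOTCH1, NOTCH2 and NOTCH3, the ligands JAG1, JAG2 and DLL1, the coactivator MAML1, and the target repressors HES1, HEY1 and HEYL. All 10 were found, each under 1 gene identifier.

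The libraries came from NCI-H1299, a human non-small cell lung cancer line, and from a DDX21 knockout (DDX21 KO) of it. DDX21 is a nucleolar RNA helicase. The 4 groups of 1 library each were DDX21 KO cells transfected with a miR-34a mimic (miR-34a DDX21 KO), non-treated DDX21 KO cells, H1299 cells transfected with the mimic (miR-34a H1299), and non-treated H1299 cells. RNA was transfected at 25 nM with a lipid reagent and cells were harvested after 48 h. The labels do not say that the non-treated cells received a control RNA, so a difference between transfected and non-treated cells includes the transfection. The labels do not say whether the DDX21 KO line is 1 clone or a pool, nor which part of DDX21 was edited. With 1 library per group no difference has a replicate check, and every comparison is between 2 libraries.

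Library totals ran from 26868358 to 36263145 estimated counts, and a floor of 3 counts was worth 0.0840 to 0.111 CPM, the count scaled to the size of its library. DDX21 stood at 182 and 206 CPM in the miR-34a and non-treated DDX21 KO libraries, against 588 and 722 CPM in the miR-34a and non-treated H1299 libraries, so its reads were fewer but present in the knockout. Of the epithelial and mesenchymal markers, KRT8, KRT18 and VIM were between 181.5 and 2092 CPM in all libraries, while EPCAM, NKX2-1 and CHGA, markers of lung epithelium and neuroendocrine cells, were at most 0.547 CPM. The 4 leukocyte, 4 fibroblast and 3 hepatocyte markers summed to at most 0.784 CPM in any library, with PTPRC at 0 throughout. The 4 endothelial markers summed to 6.10 and 3.97 CPM in the miR-34a and non-treated DDX21 KO libraries, against 1.70 and 0.812 CPM in the miR-34a and non-treated H1299 libraries. Most of each sum came from KDR, which was at 0.616 CPM in non-treated H1299 cells, and PECAM1 was at 0. The part of these markers in the differences between the lines was not tested.

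The mature miR-34a is shown because its seed (bases 2 to 8, in capitals, counted from the 5' end) fixes which mRNA letters it can pair with. RefSeq (GRCh38.p14) gives it at chr1:9151735-9151756 on the minus strand. In the reference list searched, hsa-miR-449a and hsa-miR-449b-5p share the seed, and microRNAs absent from that list may share it too.
hsa-miR-34a-5p: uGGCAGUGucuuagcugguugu
The letters searched in the 3' UTRs of GENCODE 29 were CACTGCC (pairing with bases 2 to 8), ACTGCCA (bases 2 to 7 followed by A) and the union CACTGCCA, on the mRNA strand only. In the transcript with the longest 3' UTR, 6 of the 10 genes held a match: NOTCH1 and JAG1 2 each, DLL1 3, and NOTCH3, HEY1 and HEYL 1 each. JAG2, MAML1 and HES1 held none in any annotated 3' UTR. NOTCH2 held none in its longest 3' UTR, but the 3' UTR of the transcript that carried nearly all its reads (NM_024408) held 1, which makes 7 of 10 when every annotated 3' UTR is counted. Over all 19465 genes with a 3' UTR, 23.6% held a match in the longest one and 6.02% held the union of 8 letters there. These shares belong beside the 6 of 10. No share over all genes was computed for every annotated 3' UTR, so nothing is read from the 7 of 10. A match is a description of the letters, not a shown site.

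The matched stretches follow in the order of the genes' roles, with the match in capitals and GRCh38 coordinates, all on the minus strand. They are shown to set the letters beside the mRNA levels of the same genes. The stretch of HEY1 is not printed.
NOTCH1, first match (chr9:136495879-136495906): tattttacacagaaaCACTGCCttttta
NOTCH1, second match (chr9:136495150-136495177): ttttctggggaaagaCACTGCCtgggct
NOTCH2, in the 3' UTR of NM_024408 (chr1:119912828-119912855): tgatgaggaggacaaCACTGCCtttcaa
NOTCH3 (chr19:15159947-15159975): tgctggggaagggccCACTGCCAactccc
JAG1, first match (chr20:10639474-10639497): cagaccgcgggCACTGCCgccgct
JAG1, second match (chr20:10638184-10638211): atttgccatagagtaCACTGCCtgcctt
DLL1, first match (chr6:170282665-170282692): cccggccgcctgcggCACTGCCttccgt
DLL1, second match (chr6:170282569-170282596): cgcataagaagcatgCACTGCCtgagtg
DLL1, last match (chr6:170282506-170282533): aattagaaacacaaaCACTGCCtttatt
HEYL (chr1:39626428-39626455): gagcccaaaaaagggCACTGCCttttct
Only NOTCH3 had the 8-letter union. The 3' UTR of DLL1 was 668 bases long, and of the 933 genes with a 3' UTR within 10% of that length 9.97% held any match. For NOTCH1 (1638 bases) and JAG1 (1814 bases) the shares among genes of like length were 26.1% and 28.8%. For NOTCH3 (1624 bases) and HEYL (2354 bases) they were 26.2% and 31.4%. For HEY1 (1178 bases) the share was 19.7%, and for the longest 3' UTR of NOTCH2 (3892 bases), which held no match, it was 42.0%.

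NOTCH2 was the most abundant of the 10 genes per length in all 4 libraries, and NOTCH1 and NOTCH3 were among the least. On the scale of the authors' deposited FPKM, NOTCH2 was at 5.90 in miR-34a DDX21 KO, 8.70 in non-treated DDX21 KO, 5.89 in miR-34a H1299 and 11.9 in non-treated H1299 cells. MAML1 ranked 2 in every library, at 4.58 to 5.74 FPKM. JAG1 and HES1 took ranks 3 and 4, and their counting intervals overlapped in all libraries except miR-34a H1299, where HES1 (2.73 FPKM) was above JAG1 (1.96 FPKM). The other 6 genes were below 1 FPKM, and most neighbours in their order had overlapping intervals. NOTCH1 ranked 8 to 10 and NOTCH3 ranked 7 to 9. The largest changes of place were those of the ligands JAG2 and DLL1. JAG2 was at 0.255 and 0.113 FPKM in the miR-34a and non-treated DDX21 KO libraries, against 0.799 and 0.748 FPKM in the miR-34a and non-treated H1299 libraries. DLL1 was at 0.408 and 0.619 FPKM in the miR-34a and non-treated DDX21 KO libraries, against 0.251 and 0.124 FPKM in the miR-34a and non-treated H1299 libraries. These are bulk libraries, in which fewer cells that express a gene and less RNA per cell cannot be told apart.

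**Figure D1:**
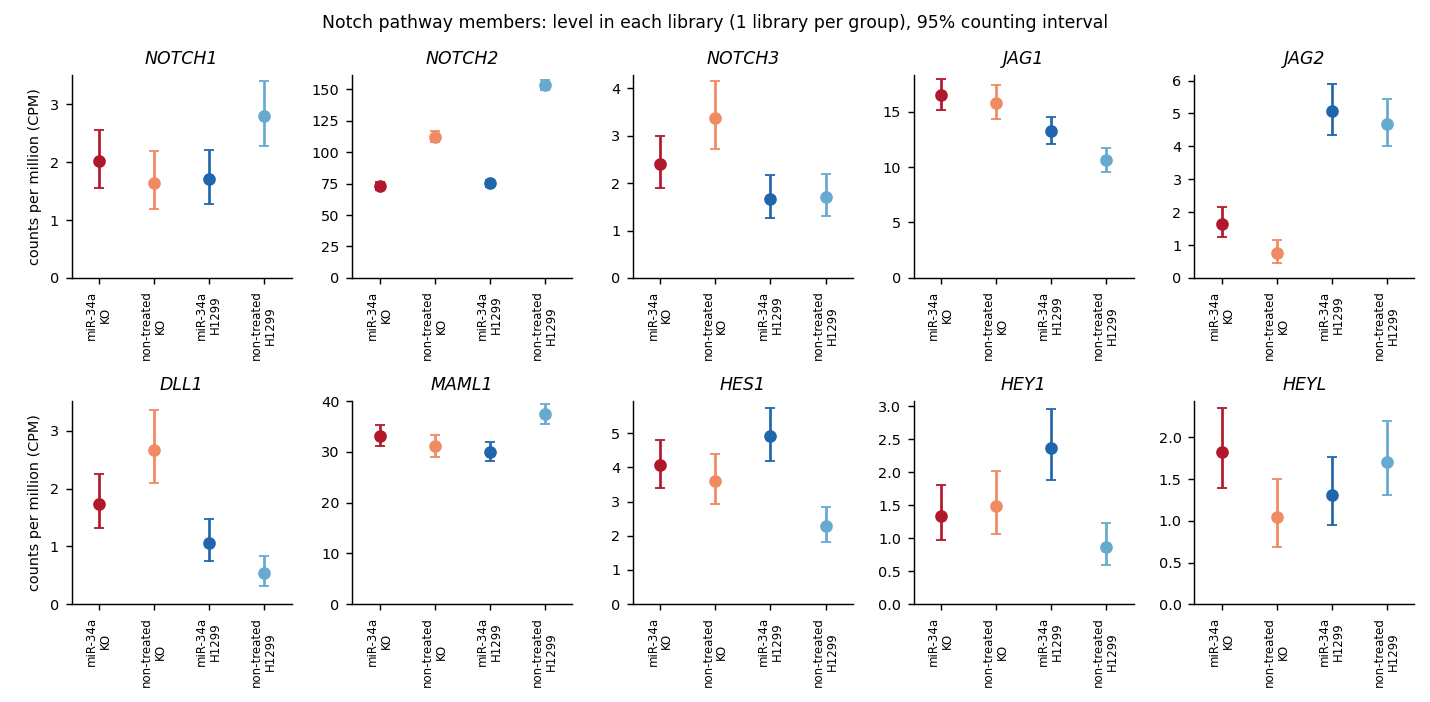
Level of each gene in CPM (linear axis from 0, a scale per gene) in the 4 libraries, with points for the library and bars for the exact Poisson 95% counting interval. JAG2 is at most 1.65 CPM in both DDX21 KO libraries and at least 4.68 CPM in both H1299 libraries, and NOTCH2 is highest in non-treated H1299 cells at 153 CPM.

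The first question was how the pathway genes stood after the miR-34a mimic. In H1299 cells the receptor NOTCH2 was lower and the repressors HES1 and HEY1 were higher by at least 2-fold, while NOTCH1 was lower and JAG1 slightly higher within 2-fold. In DDX21 KO cells 1 gene, JAG2, passed 2-fold, and it was higher. A gene was called when its log2 ratio of CPM was at least 1 in size and its 95% counting interval excluded no change, among genes with at least 50 counts in 1 of the 2 libraries. In H1299 this called 3 of the 9 entering genes, against 7.89% of all 13597 genes entering, with 3.62% of genes higher and 4.27% lower. In DDX21 KO cells it called 1 of 9, against 3.31% of 13382, with 1.62% of genes higher and 1.69% lower. The median log2 ratio of the entering genes was 0.09 in DDX21 KO and -0.03 in H1299 cells, and that of all genes was 0.00 in both lines. NOTCH1, JAG2 and HEYL in DDX21 KO cells, and HEY1 and HEYL in H1299 cells, entered only through the library in which they were higher, so these counts and medians are a description.

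NOTCH1 (gene 4851, chr9:136494433-136546048), a receptor and reported miR-34a target, had 66 counts in miR-34a DDX21 KO, 44 in non-treated DDX21 KO, 56 in miR-34a H1299 and 100 in non-treated H1299 cells, or 2.01, 1.63, 1.70 and 2.80 CPM in the same order. The non-treated H1299 library was the highest, and its counting interval overlapped that of miR-34a DDX21 KO alone. The log2 ratio of miR-34a over non-treated was 0.29 (95% counting interval -0.27 to 0.89) in DDX21 KO and -0.70 (-1.22 to -0.23) in H1299 cells. NOTCH1, with 2 matches, was thus lower within 2-fold in H1299 cells, and a difference in DDX21 KO cells was not detectable at this depth.

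NOTCH2 (gene 4853, chr1:119911553-120069703), the receptor with most reads, stood at 72.9 CPM in miR-34a DDX21 KO, 112 in non-treated DDX21 KO, 75.2 in miR-34a H1299 and 153 in non-treated H1299 cells. Both transfected libraries were below both non-treated ones. The log2 ratio was -0.62 (-0.70 to -0.55) in DDX21 KO and -1.03 (-1.10 to -0.96) in H1299 cells, where the level was 2.04-fold lower. NOTCH2 shares long stretches with the human-specific copies NOTCH2NLA, NOTCH2NLB and NOTCH2NLC, so the split of reads among them is uncertain. These copies, named after their values were seen, had log2 ratios of -0.18 to -0.05 in DDX21 KO and -0.57 to -0.46 in H1299 cells. A further copy with few counts, NOTCH2NLR, was at 0.28 (-0.29 to 0.88) in DDX21 KO and -0.61 (-1.12 to -0.14) in H1299 cells. With the counts of NOTCH2NLA, NOTCH2NLB and NOTCH2NLC added to those of NOTCH2 the ratio was -0.41 in DDX21 KO and -0.85 in H1299 cells, in the same direction but no longer beyond 2-fold. On the FPKM scale NOTCH2 in H1299 cells was not called either.

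NOTCH3 (gene 4854, chr19:15159038-15200995), a receptor best known from vascular smooth muscle and the only gene of the 10 with the 8-letter match, had 79 counts in miR-34a DDX21 KO, 91 in non-treated DDX21 KO, 55 in miR-34a H1299 and 61 in non-treated H1299 cells. Its log2 ratio was -0.48 (-0.94 to -0.04) in DDX21 KO and -0.03 (-0.58 to 0.52) in H1299 cells. In neither line was it called, and in H1299 cells the interval included both a lower and a higher level.

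Among the ligands, JAG1 (gene 182, chr20:10637684-10673999), the Jagged ligand with most reads and a reported miR-34a target, stood at 16.5 CPM in miR-34a DDX21 KO, 15.8 in non-treated DDX21 KO, 13.3 in miR-34a H1299 and 10.6 in non-treated H1299 cells. Its log2 ratio was 0.06 (-0.13 to 0.25) in DDX21 KO and 0.32 (0.12 to 0.52) in H1299 cells. JAG1 thus held 2 matches and was lower after the mimic in neither line.

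JAG2 (gene 3714, chr14:105140981-105168776), the second Jagged ligand, with no match, had 54 counts in miR-34a DDX21 KO, 20 in non-treated DDX21 KO and 167 in each H1299 library. The log2 ratio was 1.08 (0.39 to 1.97) in DDX21 KO and 0.12 (-0.20 to 0.44) in H1299 cells. The call in DDX21 KO cells rested on these few counts, and on the FPKM scale JAG2 was not called there.

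DLL1 (gene 28514, chr6:170282200-170291078), a Delta ligand with 3 matches, had 57 counts in miR-34a DDX21 KO, 72 in non-treated DDX21 KO, 35 in miR-34a H1299 and 19 in non-treated H1299 cells. Its log2 ratio was -0.60 (-1.15 to -0.10) in DDX21 KO cells. In H1299 cells DLL1 was below the minimum of 50 counts, and the ratio there was 0.93 (0.15 to 1.89). The DLL1 locus overlaps FAM120B by 376 bases in the deposited transcripts, on the opposite strand in GENCODE 29, and the labels do not say whether counting used strand. FAM120B had 1750 and 1232 counts in the miR-34a and non-treated DDX21 KO libraries, against 2331 and 2571 in the miR-34a and non-treated H1299 libraries, and its part in the DLL1 values was not tested.

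MAML1 (gene 9794, chr5:179732822-179777283), the coactivator that holds the receptor fragment and RBPJ together on DNA, stood at 33.2 CPM in miR-34a DDX21 KO, 31.1 in non-treated DDX21 KO, 30.0 in miR-34a H1299 and 37.4 in non-treated H1299 cells. Its log2 ratio was 0.09 (-0.04 to 0.22) in DDX21 KO and -0.32 (-0.44 to -0.20) in H1299 cells. The non-treated H1299 library was the highest, and the whole range of MAML1 was narrow.

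Of the repressors, HES1 (gene 3280, chr3:194136148-194138732), the classical direct Notch target, had 133 counts in miR-34a DDX21 KO, 97 in non-treated DDX21 KO, 162 in miR-34a H1299 and 82 in non-treated H1299 cells, or 4.06, 3.60, 4.93 and 2.30 CPM. The non-treated H1299 library was the lowest. The log2 ratio was 0.17 (-0.22 to 0.56) in DDX21 KO and 1.08 (0.71 to 1.50) in H1299 cells, 2.12-fold higher. HEY1 (gene 23462, chr8:79764010-79767863), a repressor known from the vasculature and heart, had 44 counts in miR-34a DDX21 KO, 40 in non-treated DDX21 KO, 78 in miR-34a H1299 and 31 in non-treated H1299 cells. Its log2 ratio was 1.39 (0.83 to 2.10) in H1299 cells. In DDX21 KO cells HEY1 was below the minimum, with a ratio of -0.14 (-0.80 to 0.51). HES1 and HEY1 were thus both higher after the mimic in H1299 cells, where NOTCH1 and NOTCH2 were lower.

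HEYL (gene 26508, chr1:39623435-39639643), the HEY-related repressor, did not follow that pattern. It had 60 counts in miR-34a DDX21 KO, 28 in non-treated DDX21 KO, 43 in miR-34a H1299 and 61 in non-treated H1299 cells, and log2 ratios of 0.78 (0.15 to 1.52) in DDX21 KO and -0.37 (-0.98 to 0.20) in H1299 cells. The highest HEYL levels were those of miR-34a DDX21 KO and non-treated H1299 cells, whose intervals overlapped, and neither ratio was called.

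**Figure D2:**
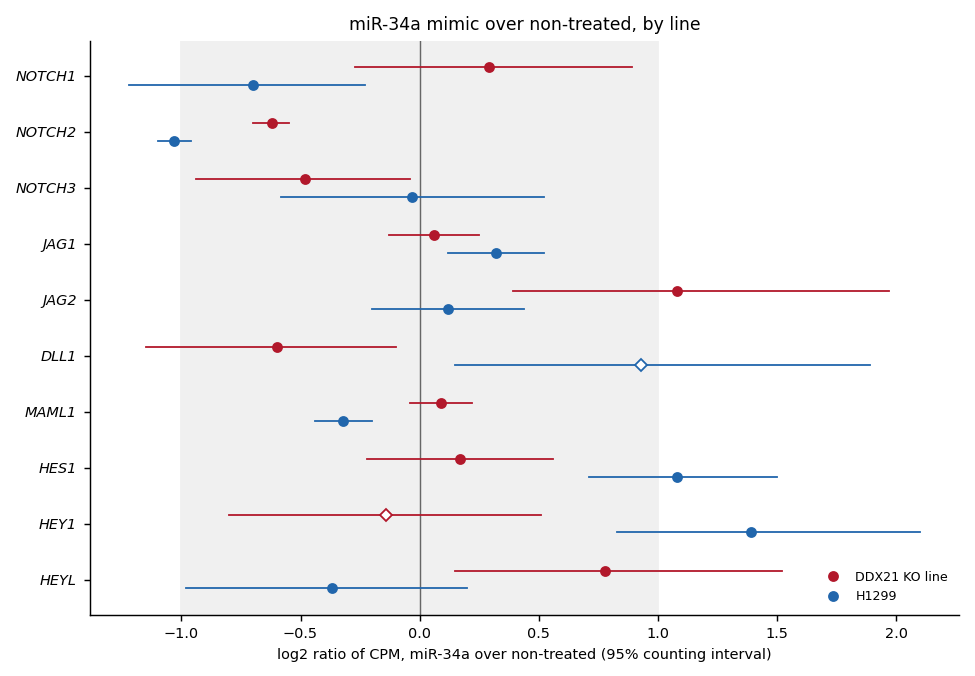
Log2 ratio of CPM, miR-34a over non-treated, for each gene in DDX21 KO (red, upper) and H1299 cells (blue, lower), with 95% counting intervals; the grey band is within 2-fold and open diamonds are genes below 50 counts in both libraries. NOTCH2 lies left of 0 in both lines, at -0.62 in DDX21 KO and -1.03 in H1299 cells, while HES1 and HEY1 lie at 0.17 and -0.14 in DDX21 KO and at 1.08 and 1.39 in H1299 cells.

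Subtracting the H1299 ratio from that of DDX21 KO cells uses all 4 libraries and asks whether the response to the mimic stood apart between the lines. It passed 2-fold, with an interval from the Poisson variance of the 4 counts that excluded 0, for 3 of the 10 genes, against 4.20% of 13964 genes entering, with 2.13% of genes higher and 2.07% lower. HEY1 entered only through miR-34a H1299 cells and DLL1 only through the DDX21 KO libraries, and each was below the minimum in 1 of its 2 ratios. HEYL reached the minimum only in miR-34a DDX21 KO and non-treated H1299 cells, the higher library of each line. The count of 3 is therefore a description. HEYL had the highest difference, 1.15 (0.31 to 1.99). HEY1 was at -1.53 (-2.37 to -0.69) and DLL1 at -1.53 (-2.45 to -0.61). Just within 2-fold were NOTCH1 at 0.99 (0.28 to 1.70), JAG2 at 0.97 (0.19 to 1.74) and HES1 at -0.91 (-1.45 to -0.38). NOTCH2 and MAML1 differed by 0.40 (0.30 to 0.51) and 0.41 (0.23 to 0.59). For NOTCH3, at -0.45 (-1.12 to 0.23), and JAG1, at -0.26 (-0.53 to 0.01), the interval included 0. In 5 of the 10 genes the ratios had opposite signs in the lines. The share of all genes with opposite signs is not given here, so nothing is read from that number. With counts set to 0.5 times their value, as if each read of a pair had been counted, HEYL was no longer called, and it was not called on the FPKM scale either.

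The next comparison set DDX21 KO cells against H1299 cells. Without treatment the gene counts of the ligands parted, JAG2 being 5.88-fold lower and DLL1 4.59-fold higher in DDX21 KO cells. JAG1, HES1 and NOTCH3 had higher and NOTCH1, NOTCH2, MAML1 and HEYL lower levels within 2-fold. With miR-34a in both lines JAG2 was still lower, and no other gene of the 10 passed 2-fold. Called were 2 of 9 entering genes without treatment, against 6.54% of 13600 genes (3.79% higher and 2.75% lower). With miR-34a 1 of 10 was called, against 6.95% of 13621 genes (3.99% higher and 2.96% lower). NOTCH1, JAG2, DLL1 and HEYL without treatment, and DLL1, HEY1 and HEYL with miR-34a, entered only through the line in which they were higher, so nothing is read from these counts against the shares over all genes. The median log2 ratio of the entering genes was 0.19 with miR-34a and -0.27 without, against -0.01 and -0.02 over all genes.

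JAG2 had log2 ratios of -1.59 (-2.09 to -1.17) with miR-34a and -2.56 (-3.40 to -1.98) without. Both DDX21 KO libraries were below both H1299 libraries, and their counting intervals did not overlap. By the authors' transcript estimates, 152 counts in non-treated H1299 cells were on the non-coding XR_001750303. The coding NM_002226 held 15 there and 20 in non-treated DDX21 KO cells. With miR-34a, H1299 cells had 105 counts on XR_001750303 and 62 on the coding NM_145159, against 54 on NM_002226 in DDX21 KO cells. The lower JAG2 level is thus that of the whole gene, and was not shown for its coding transcripts. The authors' deposited table lists JAG2 with a signed fold of -3.02 between the lines with miR-34a, at an adjusted p of 1, and of -6.29 without, at an adjusted p of 0.735 and a raw p of 0.00467. DLL1 had log2 ratios of 0.68 (0.08 to 1.36) with miR-34a and 2.20 (1.58 to 3.14) without. In the authors' deposited table DLL1 has a signed fold of 1.67 with miR-34a and of 4.98 without, both at an adjusted p of 1. That table holds 908 genes, and of the 10 only JAG2 and DLL1 are among them. The labels and headers do not name the test behind its p-values.

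Of the other genes, NOTCH3 had ratios of 0.51 (0.01 to 1.05) with miR-34a and 0.96 (0.50 to 1.48) without, and JAG1 0.31 (0.13 to 0.50) with and 0.57 (0.37 to 0.78) without. These receptor and ligand levels were higher in DDX21 KO cells under both conditions, within 2-fold. NOTCH2 was at -0.04 (-0.13 to 0.04) with miR-34a and -0.45 (-0.51 to -0.38) without. NOTCH1 was at 0.23 (-0.29 to 0.78) with miR-34a and -0.75 (-1.32 to -0.25) without. HES1 was at -0.28 (-0.62 to 0.06) with miR-34a and 0.64 (0.21 to 1.09) without. HEY1 was at -0.79 (-1.39 to -0.27) with miR-34a and, below the count minimum, 0.73 (0.06 to 1.50) without. HEYL was at 0.47 (-0.10 to 1.09) with miR-34a and -0.68 (-1.42 to -0.05) without. MAML1 was at 0.15 (0.02 to 0.27) with miR-34a and -0.27 (-0.39 to -0.14) without. For MAML1 and HEY1 the ratios under the 2 conditions had opposite signs with both intervals excluding no change. For NOTCH1, HES1 and HEYL the signs were also opposite, but the interval with miR-34a included no change.

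**Figure D3:**
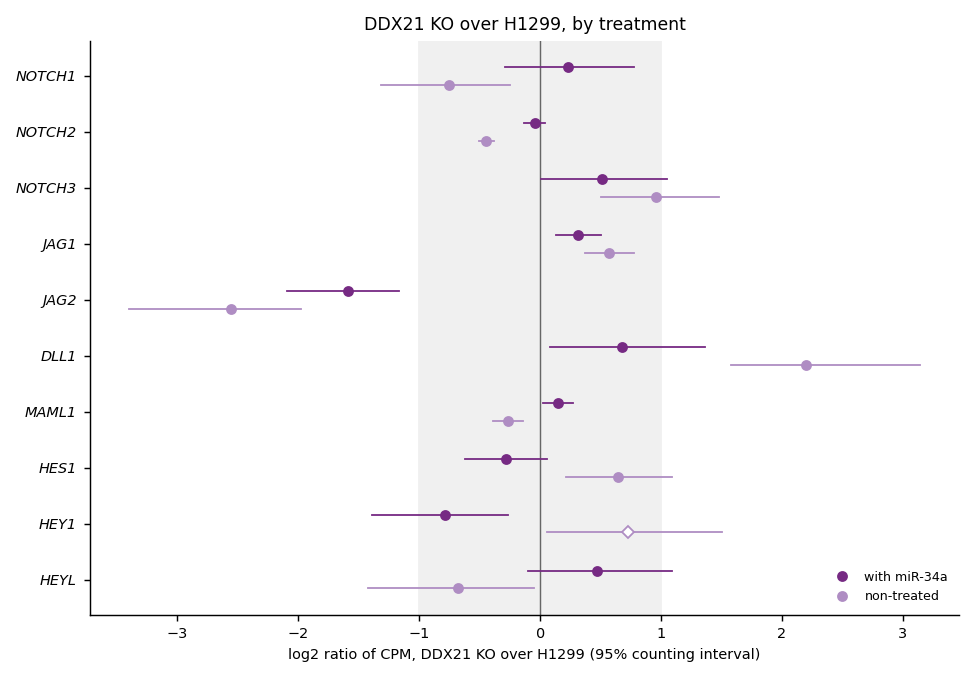
Log2 ratio of CPM, DDX21 KO over H1299, for each gene with miR-34a (dark, upper) and non-treated (light, lower), with 95% counting intervals; the grey band is within 2-fold and the open diamond is a gene below 50 counts in both libraries. JAG2 lies left of the band under both conditions, at -1.59 and -2.56, and DLL1 right of it without treatment, at 2.20.

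The comparison of miR-34a in H1299 and that of the non-treated lines share the non-treated H1299 library, which held an extreme for most of the genes. It had the highest CPM of NOTCH1, NOTCH2 and MAML1 and the lowest of JAG1, DLL1, HES1 and HEY1, 7 of the 10 genes, against 56.6% of 13964 genes with 50 counts in 1 library, so holding extremes is not particular to the 10 genes. For miR-34a DDX21 KO the count was 3 of the 10, against 45.4% of all genes. For non-treated DDX21 KO it was 5, against 43.8%, and for miR-34a H1299 it was 5, against 54.2%. The higher HES1 level in miR-34a H1299 cells and the higher HES1 level in non-treated DDX21 KO cells are therefore both read against the same low library, and a deviation of that 1 library cannot be told apart from a difference of either kind. The epithelial keratins KRT8 and KRT18 were also lowest in that library, KRT8 at 617 and 402 CPM in the miR-34a and non-treated DDX21 KO libraries, against 404 and 181.5 CPM in the miR-34a and non-treated H1299 libraries, and their part in these results was not tested. In the comparisons that do not use the non-treated H1299 library, NOTCH2 had ratios of -0.62 and -0.04, HES1 0.17 and -0.28, and JAG2 1.08 and -1.59.

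The reads of JAG2 and HEY1 were placed on different transcripts in different libraries. In both DDX21 KO libraries all JAG2 counts were on NM_002226, 54 with miR-34a and 20 without. In miR-34a H1299 cells 62.9% of 167 counts (exact Clopper-Pearson interval 55.1 to 70.2) were on the non-coding XR_001750303 and 37.1% on NM_145159, and in non-treated H1299 cells 91.0% (85.6 to 94.9) were on XR_001750303 and 8.98% on NM_002226. For HEY1, NM_012258 held 5 of 44 and 0 of 40 counts in the miR-34a and non-treated DDX21 KO libraries, against 65 of 78 and 7 of 31 in the miR-34a and non-treated H1299 libraries, with the rest on NM_001040708. A transcript at 0 in such estimates can be a failed assignment, so these splits are values of the authors' tool. The 1 short NOTCH2 transcript, NM_001200001, held 2.14% and 0.0992% of the counts in the miR-34a and non-treated DDX21 KO libraries, against 1.25% and 0.219% in the miR-34a and non-treated H1299 libraries. It was the higher in both transfected libraries. NOTCH1, JAG1, MAML1, HES1 and HEYL had all counts on 1 transcript in every library.

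**Figure D4:**
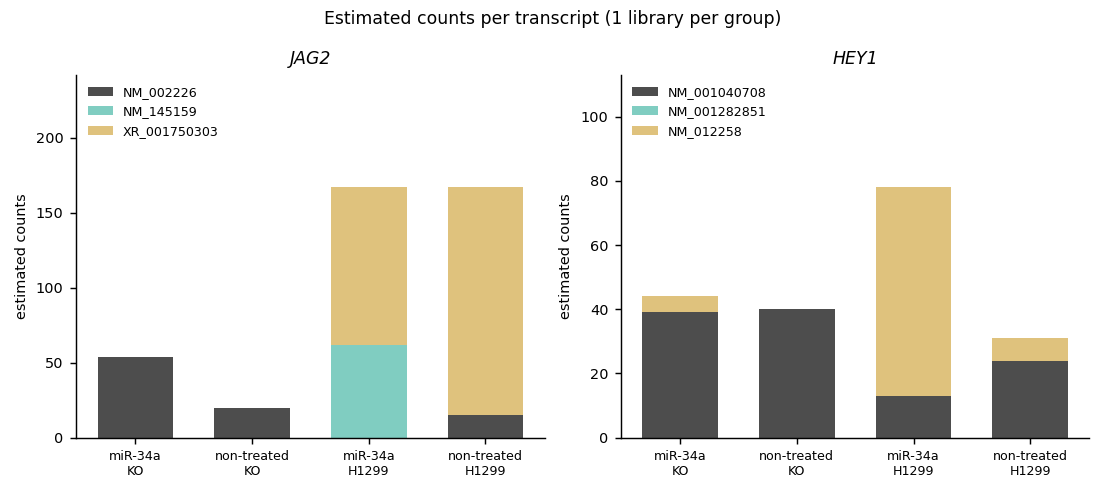
Estimated counts per transcript (stacked bars, linear axis from 0) of JAG2 and HEY1 in the 4 libraries. JAG2 counts lie on NM_002226 alone in both DDX21 KO libraries and mostly on XR_001750303 in both H1299 libraries, and 65 of the 78 HEY1 counts in miR-34a H1299 cells lie on NM_012258.

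The promoters of the target repressors were searched because these genes are read out through RBPJ, whose binding letters include GTGGGAA and GTGAGAA. Both were looked for on both strands in the 250 bases before to 50 after the start (RefSeq, GRCh38.p14), for the 8 of the 10 genes in that table. The ligand DLL1 and the repressor HEY1 had no entry there and were not searched. HES1 and HEYL held 1 match each and the other 6 none, while 10.4% of 27305 promoters held at least 1. The matches are in capitals, and both stretches are written on the strand of the gene. They start 85 and 178 bases before the gene's start. In HES1 the letters GTGGGAA lie on the gene's own strand. In HEYL they lie on the other strand and are printed as their complement, TTCCCAC.
HES1 (chr3:194136052-194136080, plus strand): tgaaagttactGTGGGAAagaaagtttgg
HEYL (chr1:39639804-39639832, minus strand): cgcctagggccTTCCCACggctcggcggc
HES1 and HEYL share these letters in opposite orientations. Their log2 ratios after the mimic were 0.17 and 0.78 in DDX21 KO and 1.08 and -0.37 in H1299 cells.

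The rest of the pathway was followed in a list of 60 other genes. Most stayed within 2-fold in every comparison. With the mimic, 2 of 49 entering genes were called in DDX21 KO cells, both lower, against 3.31% of all genes, and 3 of 49 in H1299 cells, 1 higher and 2 lower, against 7.89% of all genes. These counts are near the shares over all genes. NEURL1B, a ubiquitin ligase known to act on Notch ligands, and HDAC1, a deacetylase found in corepressor complexes, were lower in both. NEURL1B had 162 and 285 counts in the miR-34a and non-treated DDX21 KO libraries, against 65 and 211 in the miR-34a and non-treated H1299 libraries, with log2 ratios for the mimic of -1.09 (-1.39 to -0.82) in DDX21 KO and -1.55 (-2.00 to -1.17) in H1299 cells. On the FPKM scale NEURL1B was not called in DDX21 KO cells. HDAC1 had ratios of -1.35 (-1.45 to -1.26) in DDX21 KO and -1.09 (-1.17 to -1.02) in H1299 cells. PSENEN, a subunit of the gamma-secretase that cuts the receptors, was the 1 higher gene in H1299 cells, at 148 CPM with miR-34a and 61.4 CPM without, with a ratio of 1.27 (1.20 to 1.34), and 0.78 (0.71 to 0.85) in DDX21 KO cells. The median of the 9 proteases and their partners was 0.16 in DDX21 KO and 0.33 in H1299 cells. Of the 7 further targets in the list, 3 entered in DDX21 KO cells, with a median of 0.25, and 4 in H1299 cells, with a median of -0.03. None of these targets was called, and in H1299 cells some were higher and others lower, unlike HES1 and HEY1. The median of the whole list was -0.04 in DDX21 KO and -0.03 in H1299 cells, against 0.00 over all genes in both.

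RBPJ, the DNA-binding partner of the receptor fragment, had ratios of -0.33 (-0.40 to -0.26) in DDX21 KO and -0.09 (-0.16 to -0.02) in H1299 cells. ADAM10, the protease of the first cut, was at -0.08 (-0.13 to -0.03) in DDX21 KO and 0.00 (-0.05 to 0.05) in H1299 cells. On the scale of log2(FPKM + 0.1) ADAM10 was at 0.36 in DDX21 KO and -0.47 in H1299 cells, so its direction depended on the deposited measure. NOTCH4, the remaining receptor, had 15 to 41 counts and entered no comparison.

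Between the lines, 3 of 49 list genes were called with miR-34a, against 6.95% of all genes, and 3 of 50 without, against 6.54%. These counts too are near the shares over all genes. TLE4, a Groucho-type corepressor that HES proteins recruit, was higher in DDX21 KO cells under both conditions, with 71 counts in miR-34a and 54 in non-treated DDX21 KO cells, against 9 in each H1299 library, and entered only through the DDX21 KO libraries. The log2 ratios of TLE4 were 2.73 (1.98 to 4.17) with miR-34a and 2.71 (1.96 to 4.20) without, and the authors' deposited table gives TLE4 signed folds of 7.98 and 7.83 with adjusted p-values of 0.739 and 0.735. TLE2, of the same family, was higher without treatment at 2.05 (1.57 to 2.70), and at 0.83 (0.41 to 1.30) with miR-34a. TLE2 was also the 1 list gene whose response to the mimic differed beyond 2-fold between the lines, at -1.23 (-1.90 to -0.55) for DDX21 KO minus H1299, and not on the FPKM scale. MAML3, a Mastermind coactivator like MAML1, had 84 and 50 counts in the miR-34a and non-treated DDX21 KO libraries, against 171 and 151 in the miR-34a and non-treated H1299 libraries. MAML3 was lower in DDX21 KO cells under both conditions, with an interval of -1.42 to -0.64 with miR-34a and a log2 ratio of -1.16 (-1.68 to -0.72) without. Neither MAML3 call held on the FPKM scale, and the call with miR-34a did not hold with DESeq2 size factors or total counts. NEURL1B was higher in DDX21 KO cells with miR-34a at 1.30 (0.90 to 1.76), and at 0.83 (0.58 to 1.10) without.

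**Figure D5:**
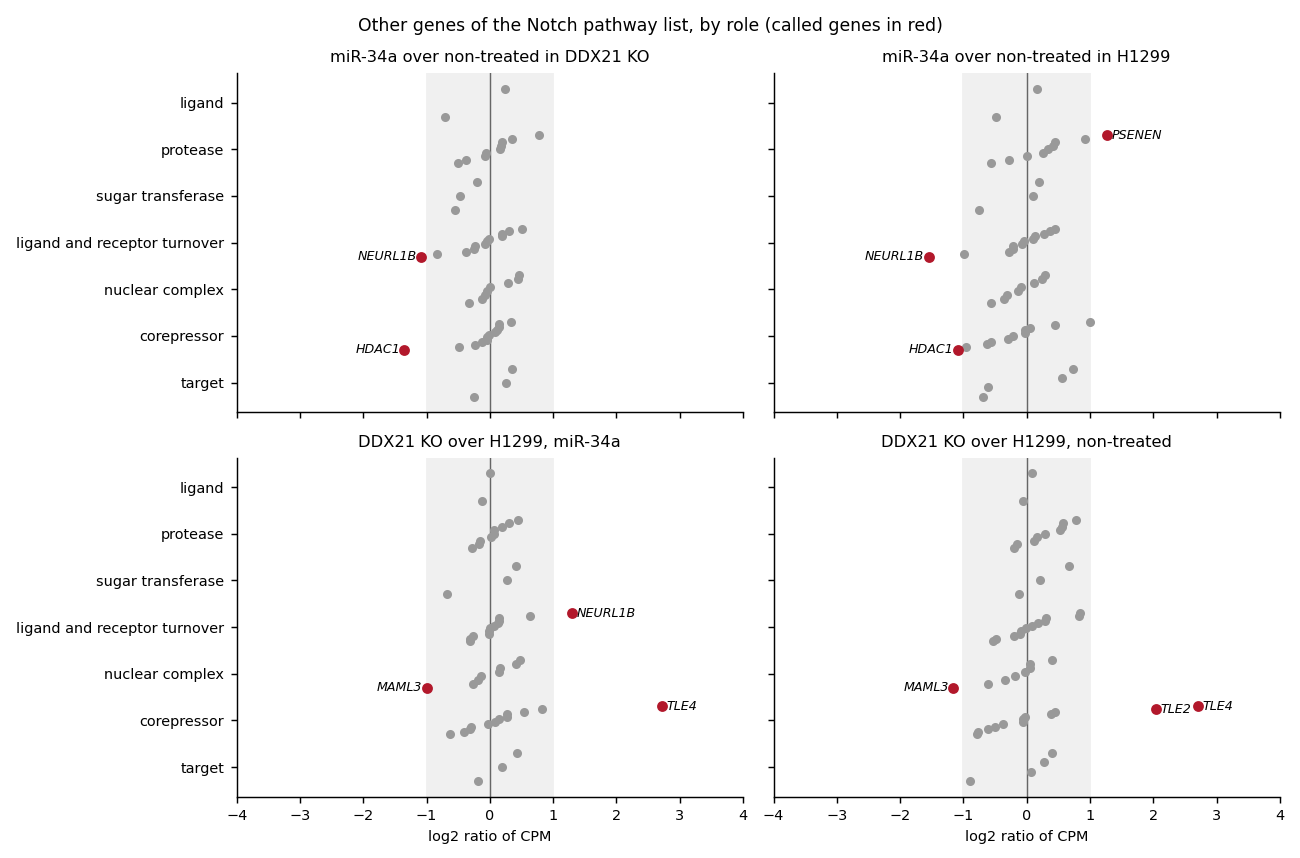
Log2 ratio of CPM for the entering genes of the 60-gene pathway list, by role, in 4 comparisons; each point is 1 gene, red points with names are called, and the grey band is within 2-fold. Between 2 and 3 genes are called per comparison, with TLE4 beyond 2.7 in both comparisons between the lines.

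The genes whose pattern over the 4 libraries was most like that of NOTCH1 and JAG1 were sought among 9901 genes with at least 200 counts in each library, by the Euclidean distance of log2 CPM centred on the gene's mean. Nearest to NOTCH1 were ARHGAP23 (distance 0.0599), the MALAT1 antisense transcript TALAM1 (0.0762), which overlaps MALAT1 and is uncertain, and SCAF4 (0.0959). Nearest to JAG1 were B2M (0.0258), SLC30A9 (0.0360) and RNF14 (0.0400). A pattern of 4 points gives little to match, and how many genes come this close was not counted. NOTCH1 itself had 44 to 100 counts, under the minimum asked of the candidates, so its distances carry its counting error. The distances describe these libraries only.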

How the data were processed

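Per the labels' protocols, ribosomal RNA was removed from total RNA before stranded library preparation, with 4 libraries, 1 per group. Per the submitters' processing notes, TopHat2 2.0.9 and Bowtie2 2.0.6 were used, with build GRCh38. The authors deposited estimated counts per gene and transcript as whole numbers, FPKM per gene, and, for a selection of genes, signed fold changes (a score below 0 where lower) with raw and adjusted p-values. The counter, its use of strand and the test are not given in the sources used here. Counts were scaled by TMM in edgeR 4.0.16 (R 4.3.3). Log2 ratios used a prior count of 2, and 95% intervals came from the exact Clopper-Pearson split of the reads of both libraries. Intervals and floors cover counting error only, and no p-value was computed. The calls were checked on simulated counts, which cannot show the spread between cultures, and the outcome of that check is not given here. The 10 genes, the 60-gene list, the markers and the rule for named genes (all 10; called list genes, at most 4 per direction; RBPJ, ADAM10, NOTCH4, DDX21; 3 genes nearest to NOTCH1 and JAG1) were chosen with earlier results of these data known. Some genes under this rule and among the markers are not reported here. Alternatives were another scaling, count minimum, prior count, FPKM, counts multiplied by 0.5 and other 3' UTRs. Adding the NOTCH2NL copies was chosen after seeing the data.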

Additional observations from a re-analysis of the deposited data

Results flagged for a closer look

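In 5 genes the miR-34a ratio had opposite signs in the lines and the counting interval of the difference excluded 0. The difference, DDX21 KO minus H1299 on the log2 scale, was 0.99 for NOTCH1, -1.53 for DLL1, 0.41 for MAML1, -1.53 for HEY1 and 1.15 for HEYL. For NOTCH1, MAML1 and HEY1 the interval of the DDX21 KO ratio included no change, and for HEYL that of the H1299 ratio did. DLL1 was below the count minimum in H1299 cells, and HEY1 in DDX21 KO cells. Over all 13964 genes entering, the interval of the difference excluded 0 for 47.8%, and among the 10 genes for 8, whatever the signs. The share of all genes that also had opposite signs is not given here, so nothing is read from the number flagged. With 1 library per group the difference was not tested against the spread between cultures. Of the flagged genes NOTCH1, DLL1 and HEY1 had at most 100 counts in any library, as did HEYL, and MAML1 had 838 or more.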

How the results depend on the processing

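No paired analysis was possible because each group had 1 library. Over the 10 genes, the named list genes and DDX21, 887 of the values under the alternatives stayed within the counting interval and 13 did not, and no called value changed sign. On the FPKM scale ADAM10 moved in all 5 comparisons, to between -0.47 and 0.83, RBPJ in 2, to -0.26 and 0.25, and TLE4 in 2, to 1.69 and 1.71. TLE2 in H1299 was called after miR-34a with either other scaling and with a prior count of 0.5. NOTCH2 summed with its copies moved to -0.85 (miR-34a, H1299), -0.41 (miR-34a, DDX21 KO), -0.27 (DDX21 KO over H1299, non-treated) and 0.17 (DDX21 KO over H1299, miR-34a), the last with the other sign. In H1299 it was not called then, nor on the FPKM scale. The numbers of called genes depended on the count minimum. In the order miR-34a in DDX21 KO, miR-34a in H1299, DDX21 KO over H1299 with miR-34a, the same non-treated, and the difference, all genes called were 443, 1073, 947, 890 and 586 with the minimum of 50, then 1246, 2110, 2190, 2076 and 1358 with a minimum of 10, then 1765, 2632, 2784, 2630 and 1501 with no minimum, and 223, 648, 387, 376 and 152 with a minimum of 200. With 200, the calls among the 10 genes were 0, 1, 0, 0 and 0, since only NOTCH2, JAG1 and MAML1 reach that depth, and those of the 60-gene list were 0 in both comparisons between the lines and in the difference. With 50, the list calls were 3 in each comparison between the lines, 1 in the difference and 2 for miR-34a in DDX21 KO. They were 5 non-treated between the lines with a minimum of 10 and with none, 5 with miR-34a and no minimum, and 2 and 3 for the difference with a minimum of 10 and none. On the FPKM scale calls after miR-34a in DDX21 KO were 0 of the 10 genes and 1 of the list, and 0 of the list for the difference. With a prior count of 0.5 the difference was called for 5 of the 10 genes, NOTCH1 and JAG2 being added.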
